A study of Mus musculus with 9 samples.

Results

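The immunoglobulin kappa genes encode the kappa light chain of antibodies, and 39 of the 389 genes in the deposited table for young against old kidney belonged to this family. They were taken as every row of that table whose gene name begins with Igk, and comprised 38 variable (V) genes and the constant gene Igkc, with 0 joining (J) genes. RNA was sequenced from the kidneys of male ICR mice, an outbred stock, in 3 groups of 3 mice. Young mice were 2 months old and untreated, old mice were 20 months old and untreated, and 3HB mice were 20 months old and had drunk water with 3-hydroxybutyrate (3HB, as the sodium salt) at 1 g/L since the age of 11 months. The labels and the results of the study name kidney as the tissue, whereas its sequencing methods name muscle. Among 10 kidney markers, Lrp2 of the proximal tubule alone was in a deposited table, at 68.6 to 154.5 over the 9 mice, and 0 of 6 skeletal muscle markers were.

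Each B cell assembles its light chain from a V segment, a J segment and the constant segment, so that a given V gene is read in the cells that chose it. Plasma cells, the antibody-secreting descendants of B cells, carry very large amounts of this RNA. The V genes fall into subfamilies by sequence, and the number before the dash in the name gives the subfamily. The V segment ends inside the third complementarity-determining region, the loop of the light chain that is completed by the J segment.

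All 39 members were in the table because the authors had called them between the young and the old mice, and genes that were not called are absent from it. The values of young against old are therefore given as a description, without a test, and the old values used against 3HB carry the same selection. The other deposited table, of 113 genes called for 3HB against old, held 0 of the 39 and 3.34% of all 389 rows of the first. The values are normalized by the authors, and they do not state whether they are TPM or FPKM. Both are scaled by transcript length, which allows levels of different genes to be set side by side. The depth behind each value is unknown, since no read totals are given. Kidney tissue was measured in bulk, so fewer cells of a type and less RNA per cell cannot be told apart.

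The germline ends of the leading members of the 8 subfamilies with at least 2 listed genes are shown, so that the subfamilies can be told apart by eye. Leading means the highest mean over the 6 mice of 20 months. Each run is the last 60 bases of the V exon, 5′ to 3′, from the GENCODE M21 transcripts (GRCm38), and the capitals mark the codon of the conserved cysteine that precedes the third complementarity-determining region.
Igkv1-117 (chr6:68121768-68121827, plus strand): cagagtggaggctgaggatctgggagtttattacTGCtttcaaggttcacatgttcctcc
Igkv3-5 (chr6:70663836-70663895, plus strand): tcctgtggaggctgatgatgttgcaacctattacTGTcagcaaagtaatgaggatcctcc
Igkv4-61 (chr6:69416893-69416952, minus strand): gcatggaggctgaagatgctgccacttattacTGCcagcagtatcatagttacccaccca
Igkv5-45 (chr6:69775750-69775809, minus strand): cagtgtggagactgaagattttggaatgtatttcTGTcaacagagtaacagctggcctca
Igkv6-13 (chr6:70457501-70457560, minus strand): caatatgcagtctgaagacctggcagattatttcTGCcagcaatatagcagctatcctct
Igkv9-124 (chr6:67942074-67942133, minus strand): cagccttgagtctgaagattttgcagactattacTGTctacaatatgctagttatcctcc
Igkv10-96 (chr6:68631963-68632022, minus strand): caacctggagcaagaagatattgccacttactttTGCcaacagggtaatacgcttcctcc
Igkv12-46 (chr6:69764523-69764582, minus strand): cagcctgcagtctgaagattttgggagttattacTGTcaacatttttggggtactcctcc

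The members resemble each other within a subfamily, and this bears on how well reads can be assigned. Over the last 280 bases of the V exon, the 68 pairs of listed members within 1 subfamily were 79.6% to 96.8% identical (median 88.1%), against 54.7% to 79.3% for the 635 pairs in different subfamilies (median 63.7%). When all annotated kappa V genes and pseudogenes were included, 23 of the 38 V members had a nearest relative at 95% identity or more. The closest was Igkv5-43, which is not listed, at 98.9% identity to Igkv5-45. Windows of 150 bases, the length of 1 read, were shared unchanged with another annotated kappa gene in 4 members, namely Igkv5-45 (18.6% of its windows), Igkv3-5 (4.29%), Igkv6-17 (1.32%) and Igkv6-25 (1.30%). With windows of 50 bases, sharing extended to 29 members, with a median over the 38 V members of 31.6%. Near-identical copies could split or exchange reads, which leaves the value of a single V gene uncertain. The nearest relative was itself listed for 18 of the 38, so subfamily sums over listed members can be touched as well, and this was not tested. The reference is C57BL/6J while the mice were ICR, and mature antibody genes carry somatic mutations, so reads may also depart from these sequences.

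Kappa transcripts were low in young kidney and abundant in all 6 kidneys of 20 months. Igkc (ENSMUSG00000076609, chr6:70726435-70726966), the constant segment shared by all kappa chains, was at 197.1, 37.0 and 58.1 in the young mice. It was at 2648, 2743 and 771.4 in the old mice and at 2126, 2072 and 3188 in the 3HB mice. The lowest mouse of 20 months therefore lay well above the highest young mouse. The summed value of the 38 V members was 34.1, 8.92 and 17.4 in young, 1853, 1692 and 635.9 in old, and 1609, 1649 and 1954 in the 3HB group. On the log2(value + 1) scale, Igkc was 4.54 higher in old than in young mice (standard error 0.93).

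**Figure D1:**
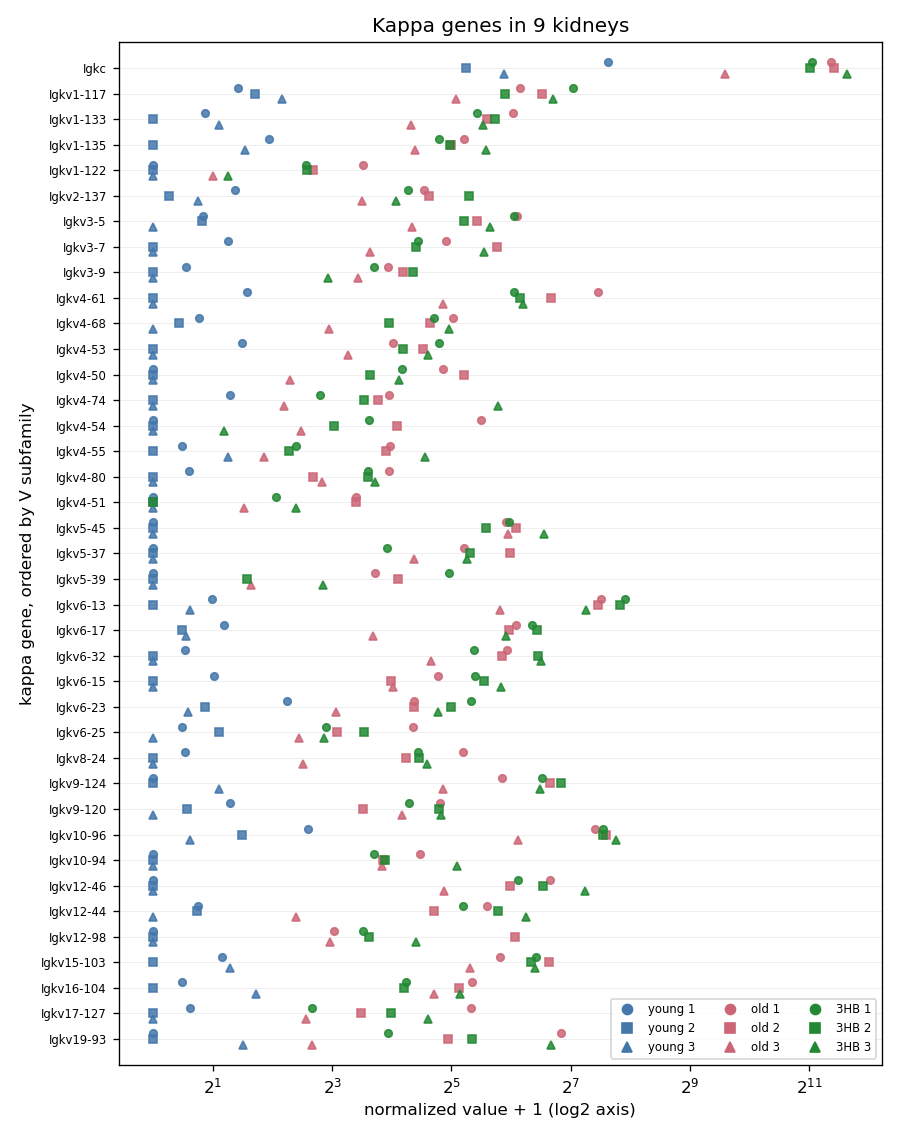
Normalized value plus 1 (log2 axis) of the 39 kappa genes in each of the 9 mice, ordered by V subfamily, with colours for the groups and marker shapes for the mouse number. All 39 members are higher in the 3 old than in the 3 young mice, and old mouse 3 (red triangles) is the lowest old mouse in 34 of the 38 V genes.

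All 39 members were higher in every old mouse than in every young mouse. Of all 389 genes in the table, 65.6% showed this, and the rows had been kept for that contrast. The difference on the log2 scale ranged from 2.40 to 6.40 over the members, with a median of 4.03, beside 1.14 over all rows of the table. The size depends on the pseudocount, and the median over the members was 6.25 with 0.1 in place of 1. All young mice were at 0 in 10 V genes, and over the other 29 members the median was 3.92. The 3 highest of these 10 were Igkv12-46, Igkv5-45 and Igkv5-37. Igkv12-46 (ENSMUSG00000076564) was at 99.7, 62.0 and 28.3 in old and at 68.3, 91.8 and 150.6 in 3HB mice. Igkv5-37 (ENSMUSG00000076571) was at 36.0, 62.0 and 19.7 in old and at 14.2, 38.8 and 37.2 in 3HB mice.

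The young values were close to the bottom of the scale. Of the 38 V genes, 12, 28 and 25 were listed at 0 in young mice 1, 2 and 3, and the highest V value in any young mouse was 5.07 (Igkv10-96 in young mouse 1). The smallest value above 0 was 0.390, 0.200 and 0.470 in these mice. Only 5 V genes were above 0 in all 3 young mice. In contrast, the old mice had 0 V genes at 0, and the 3HB mice had a single one, Igkv4-51 in 3HB mouse 2. The mice of 20 months given 3HB stayed above the young mice without overlap in 38 of 39 members (61.2% of all rows), Igkv4-51 being the exception.

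The most abundant V genes were the same few in most mice of 20 months. Igkv6-13 (ENSMUSG00000076594) was the highest in old mouse 1 and in 3HB mice 1 and 2. Igkv10-96 (ENSMUSG00000094420) led in old mice 2 and 3 and in 3HB mouse 3. Igkv6-13 was at 0.970, 0 and 0.540 in young, 181.0, 175.6 and 55.6 in old, and 240.6, 226.5 and 152.0 in the 3HB group. Igkv10-96 was at 168.9, 193.0 and 68.7 in old and at 186.0, 185.3 and 216.4 in 3HB mice. Values of old and 3HB mice overlapped for both (exact permutation test, two-sided, p = 0.3 each). The log2 differences were 0.74 for Igkv6-13 and 0.57 for Igkv10-96, and 0.18 and 0.11 without old mouse 3. Among the young mice, Igkv10-96 was highest in mouse 1, and Igkv1-117 in mice 2 and 3, at 2.28 and 3.48.

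Old mouse 3 stood apart from the other old mice. Its V values were a median of 0.346 of the mean of old mice 1 and 2, ranging from 0.0748 for Igkv19-93 to 0.965 for Igkv5-45. It had the lowest old value in 34 of 38 V genes, whereas old mouse 2 was lowest in 3 and old mouse 1 in 1. No 3HB mouse was the lowest in most V genes, with the lowest value in mouse 1 for 16 genes, in mouse 2 for 13 and in mouse 3 for 9. The highest 3HB value, however, was in mouse 3 for 21 of the 38, against 9 for mouse 1 and 8 for mouse 2.

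The level of kappa RNA overlapped between the 3HB and the old mice. On the log2 scale the V sum was 0.46 higher with 3HB (standard error 0.50, two-sided exact permutation test, p = 0.6). The difference was -0.03 when old mouse 3 was left out, so its direction rested on that mouse. As the mean over the V genes of log2(value + 1), which weights each gene equally, it was 0.26 (exact permutation test, p = 0.9). Igkc gave the same picture, at 0.44 higher (standard error 0.63, exact permutation test, p = 0.8) and -0.16 without old mouse 3. Of the 39 members, 26 had a higher and 13 a lower mean with 3HB, and without old mouse 3 it was 18 higher and 21 lower. A higher mean with 3HB was found in 56.0% of all rows. With 3 mice against 3, the exact permutation test cannot go below p = 0.1.

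**Figure D2:**
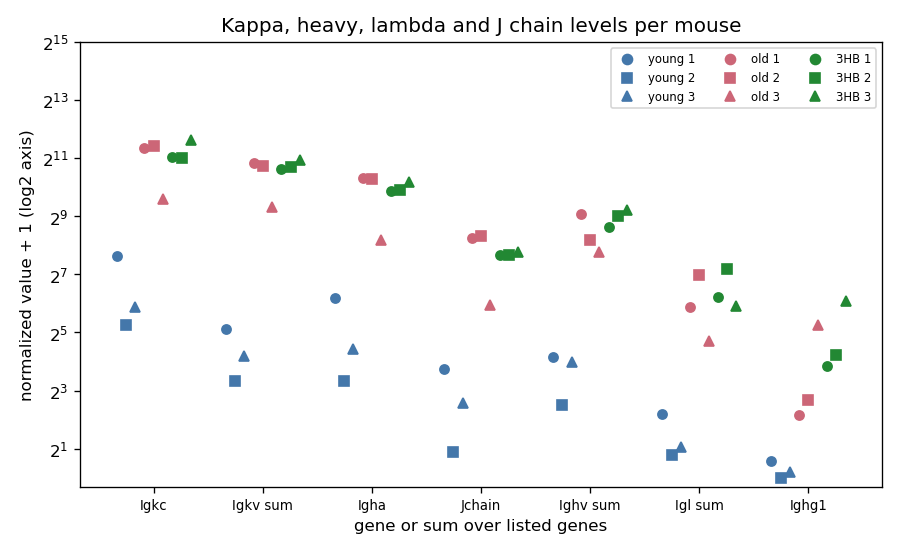
Normalized value plus 1 (log2 axis) of Igkc, the sum of 38 kappa V genes, Igha, Jchain, the sums of the listed heavy V and lambda genes, and Ighg1, with 1 point per mouse. Old mouse 3 (red triangle) is the lowest mouse of 20 months in every column but Ighg1, where it is at 36.9 and is exceeded by 3HB mouse 3 alone.

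Antibody genes outside the kappa locus were set beside the members mouse by mouse. Igha, the heavy chain of IgA, was at 72.0, 9.14 and 20.5 in young, 1277, 1241 and 288.2 in old, and 940.8, 962.1 and 1177 in the 3HB group. The ratio of Igkc to Igha lay between 2.07 and 2.71 in the 6 mice of 20 months and between 2.74 and 4.04 in the young. Jchain, which joins antibody units into the polymers of IgA and IgM, was at 302.2, 317.4 and 60.4 in old and at 201.0, 202.9 and 218.0 in 3HB mice. Old mouse 3 was thus low in Igkc, Igha and Jchain together. Ighg1, the heavy chain of IgG1, was highest in old mouse 3, at 3.41, 5.44 and 36.9 in the old mice. It was at 13.3, 17.9 and 66.9 in the 3HB mice. The other listed heavy constant genes were not lowest in old mouse 3 either. Ighm, the heavy chain of IgM, was at 21.1, 7.86 and 14.9 in the old mice, Ighg2b at 28.9, 18.4 and 22.5, and Ighg2c at 6.74, 4.27 and 12.5. Among the listed heavy constant genes Igha, Ighm, Ighg1, Ighg2b and Ighg2c, Igha held 95.5%, 97.2% and 76.8% of the summed value in the old mice and 94.8%, 93.0% and 91.0% in the 3HB mice. Pigr, the receptor that carries polymeric antibody across epithelia, was at 180.3, 220.8 and 549.0 in old mice and at 138.1, 293.5 and 132.6 in 3HB mice, so that it was highest in the old mouse with the least kappa RNA.

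Of a list of 26 genes of B cells, plasma cells and antibody assembly or transport, 7 were in the table, each with a higher mean in the old mice, as had 69.7% of all rows. These were Cd79a, Mzb1, Jchain, Irf4, Pou2af1, Tnfrsf17 and Pigr. Mzb1, a chaperone of antibody secreting cells, had values of 0, 0.360 and 1.83 in young, 8.0, 11.2 and 6.02 in old, and 11.3, 8.95 and 11.1 in the 3HB group. Tnfrsf17, the BCMA receptor of plasma cells, was at 0 throughout the young group and at 1.13, 0.880 and 0.720 in the old group. Cd79a, the signalling chain of the B cell receptor, was at 3.68, 3.55 and 0.700 in old mice, the lowest again in old mouse 3. In the marker lists, 3 of 7 plasma cell, 1 of 6 B cell (Cd79a) and 1 of 7 T cell genes were listed. The T cell gene was Cd8a, at 4.22, 0.470 and 5.37 in young and 0.330 to 0.940 in the mice of 20 months. The part of these cells in the kappa values was not tested.

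The V subfamilies differed in size and in how much of the annotated repertoire was listed. The GENCODE annotation holds 100 kappa V genes in 20 subfamilies, of which 38 genes in 14 subfamilies were in the table. The share listed was 6 of 9 genes in Igkv6, 3 of 5 in Igkv5, 3 of 6 in Igkv12, 4 of 10 in Igkv1, 3 of 9 in Igkv3 and 9 of 26 in Igkv4, the largest subfamily. Igkv8 had 1 of 10 genes listed and Igkv14 had 0 of 4. Genes outside the table were not analysed here, and subfamily sums therefore cover listed members only.

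Igkv6 was the subfamily with the largest share of the listed V signal in all 6 mice of 20 months. Its 6 members summed to 373.4, 335.7 and 118.8 in old and to 448.8, 485.7 and 389.7 in 3HB mice. The groups did not overlap, and the log2 difference was 0.83 (standard error 0.53, two-sided exact permutation test, p = 0.1, unadjusted over the 8 subfamilies compared). Without old mouse 3 the difference was 0.31. As a share of the V sum, Igkv6 held 20.1%, 19.8% and 18.7% in old mice and 27.9%, 29.5% and 19.9% in 3HB mice. 3HB mice 1 and 2 lay above the old mice in this share, and 3HB mouse 3 lay among them (exact permutation test, p = 0.2).

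Within Igkv6, Igkv6-15 and Igkv6-23 were the members whose 3HB and old values did not overlap. Of all 39 members these 2 were higher with 3HB without overlap and 0 were lower, beside 7.2% and 6.17% of all rows. Igkv6-15 (ENSMUSG00000094797) was at 26.4, 14.8 and 15.2 in old and at 41.3, 45.8 and 55.9 in 3HB mice. Its log2 difference was 1.34 (standard error 0.29) and stayed between 1.20 and 1.60 when any single mouse was left out. Igkv6-23 (ENSMUSG00000095630) was at 19.7, 19.7 and 7.37 in old and at 39.3, 30.9 and 26.5 in 3HB mice. Its log2 difference of 1.10 (standard error 0.46) was 0.66 without old mouse 3. Both were named because their groups did not overlap, which by itself fixes the permutation p at the smallest value of this design, so no test is given for them. The other Igkv6 genes overlapped between the groups, among them Igkv6-17 at 66.9, 61.6 and 11.9 in old and 80.4, 85.1 and 59.5 in 3HB mice.

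The germline sequences of these 2 genes are close to that of Igkv6-13, the leading member, and are shown to let the differences be seen. Each run is the last 287 bases of the V exon from GENCODE M21 (GRCm38), all on the minus strand of chromosome 6, and the capitals mark bases that differ from Igkv6-13. Igkv6-15 differs at 14 positions and Igkv6-23 at 11.
Igkv6-13 (chr6:70457501-70457787): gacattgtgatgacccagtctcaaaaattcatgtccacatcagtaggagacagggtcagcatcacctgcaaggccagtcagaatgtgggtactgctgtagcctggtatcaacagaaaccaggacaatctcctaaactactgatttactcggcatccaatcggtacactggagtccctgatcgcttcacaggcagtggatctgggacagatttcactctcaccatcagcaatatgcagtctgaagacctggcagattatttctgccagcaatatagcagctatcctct
Igkv6-15 (chr6:70406469-70406755): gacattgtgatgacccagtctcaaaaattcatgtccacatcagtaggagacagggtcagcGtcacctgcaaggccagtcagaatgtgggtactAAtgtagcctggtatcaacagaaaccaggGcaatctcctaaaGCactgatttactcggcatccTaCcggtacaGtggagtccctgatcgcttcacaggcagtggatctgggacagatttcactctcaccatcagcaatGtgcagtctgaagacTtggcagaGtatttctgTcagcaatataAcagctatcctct
Igkv6-23 (chr6:70260409-70260695): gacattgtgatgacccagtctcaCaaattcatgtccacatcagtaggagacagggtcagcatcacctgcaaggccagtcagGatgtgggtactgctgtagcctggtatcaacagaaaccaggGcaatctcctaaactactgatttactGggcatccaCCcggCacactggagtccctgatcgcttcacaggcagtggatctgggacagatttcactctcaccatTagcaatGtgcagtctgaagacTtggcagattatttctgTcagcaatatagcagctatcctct

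Igkv4 had a lower mean share with 3HB, while its summed level was about equal in the groups. Its 9 members summed to 347.0, 240.1 and 65.8 in old and to 169.4, 145.8 and 236.8 in 3HB mice, a log2 difference of 0.03 (standard error 0.75, exact permutation test, p = 1). Without old mouse 3 it was -0.68, and the groups no longer overlapped. The Igkv4 share was 18.7%, 14.2% and 10.4% in old and 10.5%, 8.84% and 12.1% in 3HB mice (exact permutation test, p = 0.3). The difference in mean share, -3.93 percentage points, was -1.78 without old mouse 1 and -5.96 without old mouse 3. Igkv4-61 (ENSMUSG00000076552), its leading member, was at 174.8, 100.54 and 27.9 in old mice, a wide range, and at 64.9, 69.9 and 72.7 in 3HB mice, a narrow one. Igkv4-61, Igkv4-50, Igkv4-51, Igkv4-54 and Igkv1-122 were lower in every 3HB mouse than in old mice 1 and 2, whereas old mouse 3 lay below or among the 3HB mice in each. These 5 of 39 are close to the 12.9% of all rows that were lower with 3HB in this way. In the other direction, 2 of 39 members (Igkv6-15 and Igkv6-23) were higher in every 3HB mouse than in old mice 1 and 2, against 15.2% of all rows.

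Other subfamilies overlapped between old and 3HB mice in their sums. Igkv10, with Igkv10-96 and Igkv10-94, summed to 190.1, 206.5 and 81.9 in old and to 198.0, 199.2 and 249.7 in 3HB mice. Its share of the V sum was the steadiest of the larger subfamilies with 3HB, at 12.4% ± 0.355 (SD, n = 3), against 11.8% ± 1.36 in old mice. Igkv1 summed to 181.3, 174.8 and 72.8 in old and to 204.6, 146.7 and 196.1 in 3HB mice, and its leading gene Igkv1-117 (ENSMUSG00000094335) was at 70.2, 91.2 and 32.8 in old and at 131.1, 58.95 and 102.8 in 3HB mice. Igkv12 summed to 154.0, 153.5 and 39.4 in old and to 114.4, 156.8 and 246.2 in 3HB mice. Igkv9, whose leading gene Igkv9-124 (ENSMUSG00000096632) was at 56.8, 99.9 and 27.9 in old and 90.9, 112.9 and 88.8 in 3HB mice, had a log2 difference of 0.69 (standard error 0.39, exact permutation test, p = 0.2), and of 0.33 without old mouse 3. Igkv3, led by Igkv3-5 at 67.4, 42.1 and 19.2 in old and 64.9, 36.2 and 49.0 in 3HB mice, differed by 0.19 (standard error 0.50, exact permutation test, p = 1), and by -0.29 without old mouse 3.

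The Igkv5 sum was less low in old mouse 3 than the V sum, and 1 of its 3 members, Igkv5-45, was level across the old mice. Its sum was 0 in each young mouse, and it came to 107.4, 144.6 and 82.4 in old and to 105.7, 87.9 and 136.6 in 3HB mice. Its share of the V sum was therefore highest in old mouse 3, at 13.0%, against 5.80% and 8.55% in old mice 1 and 2. The leading gene, Igkv5-45 (ENSMUSG00000094094), was at 59.2, 66.5 and 60.6 in the old mice, a coefficient of variation of 6.25%, where the median over V genes was 56.8%. In 3HB mice it was at 61.4, 47.1 and 93.3. The other members were lowest in old mouse 3, with Igkv5-39 at 12.2, 16.1 and 2.13 and Igkv5-37 at 36.0, 62.0 and 19.7 in the old mice. Igkv5-45 is also the member with the most read-length windows shared with an unlisted gene, and the part of this in its even level was not tested.

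**Figure D3:**
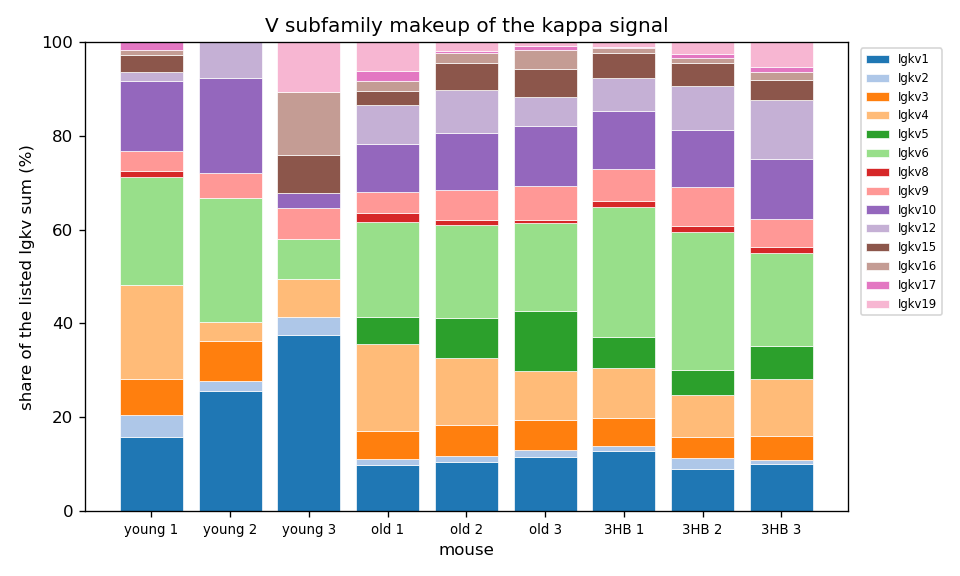
Share (%) of the sum of the 38 listed V genes held by each of 14 V subfamilies, as 1 stacked bar per mouse. The 6 bars of 20 months resemble each other, with Igkv6 largest at 18.7% to 29.5%, while the young bars rest on values near 0 and vary more.

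The makeup of the kappa signal was compared through the share of the V sum held by each gene. Shares of 2 V genes were higher with 3HB without overlap (Igkv6-15 and Igkv6-23) and those of 4 were lower (Igkv16-104, Igkv4-51, Igkv4-54 and Igkv4-61). When the value of every row was divided by the V sum of the mouse, 2.06% of all rows were higher and 7.97% lower without overlap. The V sum was low in old mouse 3, which raises the divided value there for genes that do not follow it. These percentages are therefore not a like-for-like rate for V shares. The effective number of V genes, the exponential of the Shannon entropy of the shares, was 27.3, 26.0 and 25.5 in old and 23.0, 23.8 and 26.2 in 3HB mice, of 38 possible. The difference in effective number, 3HB minus old, was -1.94 (standard error 1.13), and the groups overlapped (exact permutation test, p = 0.3). It ranged from -2.89 without 3HB mouse 3 to -1.25 without 3HB mouse 1 when single mice were left out. The largest share of a single V gene was 9.77%, 11.4% and 10.8% in old and 14.95%, 13.7% and 11.1% in 3HB mice (exact permutation test, p = 0.2). In the young mice the effective number was 19.8, 7.91 and 10.8, with 26, 10 and 13 of the 38 V genes above 0. Spearman correlations between the V profiles of 2 mice, over 38 genes, were 0.699 to 0.769 among old mice, 0.759 to 0.861 among 3HB mice and 0.733 to 0.823 between old and 3HB mice. Those among young mice were 0.150 to 0.462. The genes share a mouse, a library and sequence, so these values are a description.

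**Figure D4:**
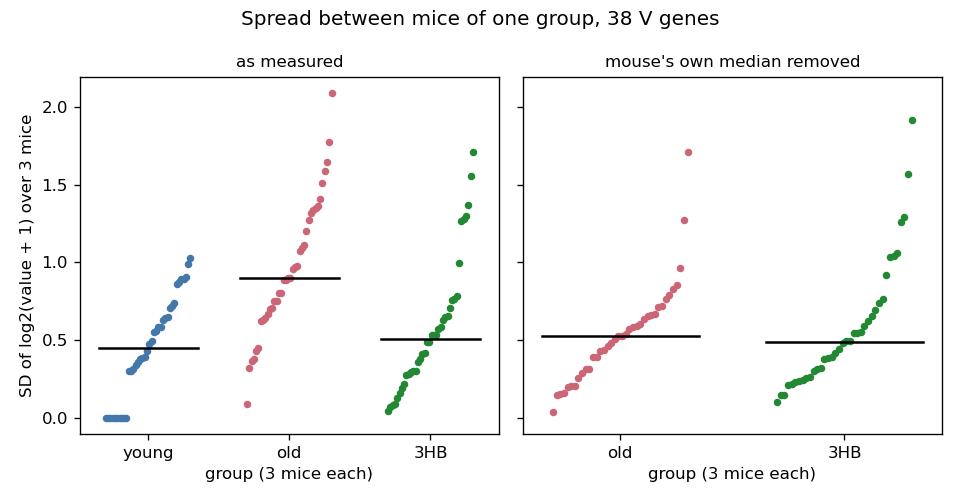
Standard deviation of log2(value + 1) over the 3 mice of a group for each of the 38 V genes, as measured (left) and for the mice of 20 months after each mouse's median over the V genes was subtracted (right), with black lines at the medians. The old median is 0.90 before and 0.53 after, while the 3HB median is 0.51 and 0.49.

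Spread between mice of 1 group was larger in old than in 3HB mice as measured. The median SD of log2(value + 1) over the 38 V genes was 0.90 among old mice, 0.51 among 3HB mice and 0.45 among young mice. The place of the young mice rests on the added 1: with a pseudocount of 0.1 the medians were 0.92, 0.53 and 1.53 in the same order, and the median coefficient of variation was 56.8%, 35.7% and 117.2% (28 genes above 0 in young). When the median V level of each mouse was subtracted, it was 0.53 in old and 0.49 in 3HB mice. Without old mouse 3, the median SD of the old mice was 0.39, and without 3HB mouse 3 that of the 3HB mice was 0.28. These last values rest on 2 mice each, and the difference in spread between groups was not tested. The V sum had a coefficient of variation of 47.4% in old and 10.9% in 3HB mice, and Jchain of 63.6% and 4.502%. Both old values rest on old mouse 3. The V sums of old mice 1 and 2 differed by 9.09% of their mean, and their Jchain values were 302.2 and 317.4.

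The spread of single V genes ranged widely. As measured, Igkv19-93 (ENSMUSG00000098814) had the largest spread among old mice, at 113.3, 29.8 and 5.35 (SD 2.09 on the log2 scale), and was at 14.3, 39.9 and 101.4 in 3HB mice. The smallest was that of Igkv5-45 (SD 0.09), whose SD was 0.85 once mouse medians were subtracted, when Igkv1-133 was the smallest (SD 0.04). Among 3HB mice, Igkv5-39 (ENSMUSG00000076569) spread most, at 30.1, 1.99 and 6.21 (SD 1.71), and Igkv15-103 (ENSMUSG00000076523) least, at 84.2, 79.7 and 83.5 (SD 0.04, and 0.32 with mouse medians subtracted). Igkv12-98 and Igkv4-74, chosen after their values were seen, had the largest gaps between the highest and the next mouse of 20 months once mouse medians were removed. Igkv12-98 (ENSMUSG00000076526) was at 66.2 in old mouse 2 and at 6.84 to 20.3 in the other 5 mice. Igkv4-74 (ENSMUSG00000076543) was at 53.8 in 3HB mouse 3 and at 3.55 to 14.5 in the other 5. Between old mice 1 and 2, whose V sums differed by 9.09% of their mean, 7 of the 38 V genes were at least 2-fold apart.

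The subfamilies with a single listed gene were Igkv2, Igkv8, Igkv15, Igkv16, Igkv17 and Igkv19. Igkv2-137 was at 22.2, 23.6 and 10.3 in old and 18.3, 38.3 and 15.9 in 3HB mice. Igkv8-24 was at 35.7, 18.0 and 4.67 in old and 20.7, 21.02 and 23.2 in 3HB mice. Igkv17-127 was at 39.3, 10.3 and 4.92 in old and 5.32, 14.9 and 23.3 in 3HB mice. In these 3 genes the old and 3HB mice overlapped. Igkv16-104 (ENSMUSG00000076522) was at 39.6, 34.0 and 25.2 in old and 17.8, 17.4 and 34.4 in 3HB mice, which overlap too. Its share of the V sum was 2.14%, 2.01% and 3.97% in old and 1.11%, 1.06% and 1.76% in 3HB mice, the one subfamily of 14 whose shares did not overlap.

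**Figure D5:**
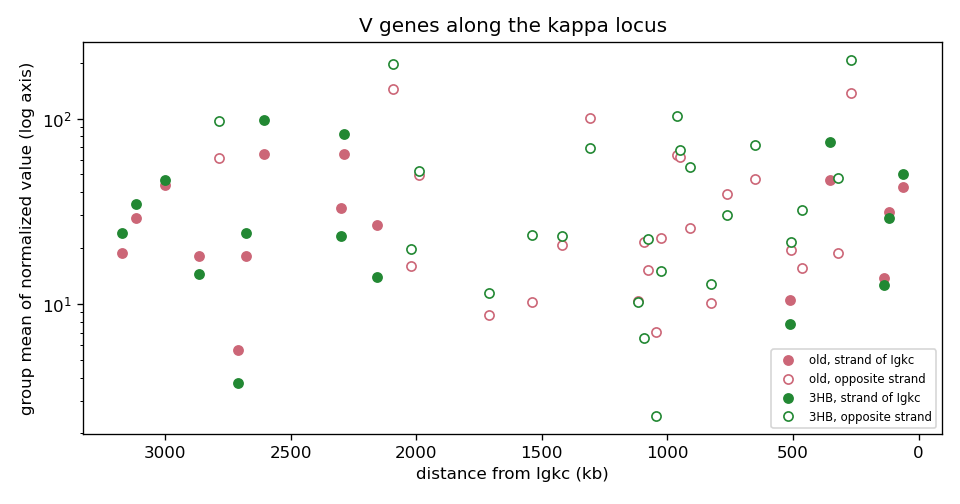
Group mean of the normalized value (log axis) of each V gene in old and 3HB mice against its distance from Igkc in kb, with filled points for genes on the strand of Igkc and open points for the opposite strand. High and low V genes occur along the whole locus, and the 2 highest, Igkv6-13 and Igkv10-96, are both on the opposite strand.

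The members lay across 3171 kb of chromosome 6, from Igkv2-137 to Igkc, in the GRCm38 annotation, the build named in the submitters' processing notes. V genes on the strand of Igkc join a J segment by deletion and those on the opposite strand by inversion. Of the 38 V members 15 were on the strand of Igkc, against 38 of the 100 annotated V genes. These 15 held 30.7%, 35.4% and 36.6% of the V sum in old and 33.8%, 30.7% and 29.1% in 3HB mice, which overlap. By distance, 15 members lay under 1000 kb from Igkc, 10 at 1000 to 2000 kb and 13 at 2000 kb or more, against 40, 31 and 29 of the annotated genes. The nearest class held 41.8%, 41.3% and 43.9% of the V sum in old and 48.3%, 49.5% and 44.9% in 3HB mice, without overlap. The groups overlapped in the middle class, at 24.8%, 15.95% and 11.2% in old and 11.4%, 11.3% and 17.3% in 3HB mice. They also overlapped in the farthest, at 33.4%, 42.8% and 44.9% in old and 40.3%, 39.2% and 37.8% in 3HB mice. These shares were not tested. All 6 listed Igkv6 genes lie in the nearest class.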

How the data were processed

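RNA was sequenced from 9 kidneys as paired-end reads of 150 bases. The authors deposited 2 tables of normalized signal values (TPM or FPKM, not stated which) with 2 decimals, one column per mouse, and each holds only the genes they called for its comparison. CASAVA, HISAT2, StringTie and the build GRCm38 are named in the submitters' processing notes, and the annotation release and the call threshold are not given in the sources used here. Columns of the authors' annotation were not used. Since other genes are absent, no fit across genes was made. The tests planned for a full table (limma or edgeR) were not run.

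Members and lists were chosen with earlier results of these data known. Values were compared on the log2(value + 1) scale. The difference of group means is given with its standard error, and 3HB against old was tested by two-sided exact permutation over the 20 splits of 6 mice. Young against old is described only. The old mice are shared by both comparisons. Depth cannot be had from these values, so precision rests on 3 mice per group. The labels give separate samples, and p-values measure only the spread between them. Named genes were Igkc, the highest member of each subfamily, the highest in each mouse, those with the extreme spreads and those without overlap between 3HB and old. Others were chosen after their values were seen. Alternatives were a pseudocount of 0.1, a limit on low values, other summaries, each mouse left out and a replicate block. Sequences and positions came from GENCODE M21. Python 3.11.15, numpy 2.4.6, pandas 2.3.3, scipy 1.17.1, matplotlib 3.10.9 and Biopython 1.88 were used. On fixed inputs or simulated data with known answers, 7 of 7 checks passed.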

Additional observations from a re-analysis of the deposited data

How the results depend on the processing

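No test reached p = 0.05 in any setting, which this design does not allow (smallest exact permutation p 0.1). All 39 members had a highest group mean of at least 1, so that limit changed nothing. With a pseudocount of 0.1 the median difference of old from young was 6.25 in place of 4.03, and the median SD of the young mice was 1.53. As a mean over members of log2 values, an alternative chosen after seeing the data, the Igkv4 difference of 3HB from old was -0.12. The planned mean over all V genes of log2 values gave 0.26 in place of 0.46, and group medians gave a median member difference of 0.06 in place of 0.34.

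Leaving out each mouse in turn turned the direction of 8 of 30 results, 5 of them without old mouse 3. For 3HB against old on the log2 scale, the ranges were -0.033 to 0.74 for the V sum, -0.16 to 0.75 for Igkc, -0.13 to 0.64 for the median member, -0.29 to 0.43 for Igkv3, -0.68 to 0.51 for Igkv4 and -0.20 to 0.20 for Igkv5. Differences in share ranged from -1.06 to 0.85 percentage points for Igkv1 and from -0.15 to 1.16 for Igkv10. Members without overlap, in either direction, numbered 4 to 7 of 39, while 20.6% to 28.0% of all rows did not overlap. The median SD ranged from 0 to 0.43 in young, from 0.39 to 1.06 in old and from 0.28 to 0.43 in 3HB mice. The causes were not tested.

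Deviations of same-numbered mice correlated at -0.24 to 0.16 over the rows of the table, and those of other-numbered mice at -0.23 to 0.28. With 3 mice per group, these values cannot show whether the replicate numbers pair the mice. With the number as a replicate block, 6 members differed in the same direction in all 3 pairs. Of these, 5 were higher with 3HB (14.1% of all rows) and 1 was lower (12.1%). The V sum difference of 0.46 cannot change with the block, because the mean of paired differences equals the difference of group means. Depth was unknown, and low young values limit fold changes.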
